A study of Homo sapiens with 10 samples.

Results

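Involucrin, filaggrin and other precursors of the cornified envelope were examined in A253 cells, an established human line derived from a salivary gland squamous carcinoma. The set held IVL, FLG, FLG2, HRNR, RPTN, CRNN, TCHH, CNFN, SBSN and A2ML1, chosen by gene name from a table of read counts, and all 10 were found among its 58735 genes. RNA was sequenced from 3 groups of 2 libraries. The control carried a guide RNA against dTomato, and the clones Cl1 and Cl10 (DUSP1-/+) carried guides around exon 2 of DUSP1 and were heterozygous for its deletion. By the study's methods the cells received their guides and Cas9 from lentiviruses under drug selection and were grown in DMEM with serum. Each DUSP1-/+ group is 1 single-cell clone, so the deletion and the clone cannot be told apart. No source used here says whether the 2 libraries of a group came from separate cultures, so the p-values measure only the spread between these libraries, which may be technical. The libraries of the SOX2 experiment in the same series of 10 samples were not analysed here.

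The cornified envelope is the protein shell that replaces the plasma membrane of a keratinocyte at the end of its differentiation. Precursors such as involucrin are laid under the membrane and joined by transglutaminases, and profilaggrin is cut into filaggrin, which bundles keratin filaments. Most of the genes lie side by side in the epidermal differentiation complex of chromosome 1, where a family of genes with an S100 domain fused to a long repeat region (FLG, FLG2, HRNR, RPTN, CRNN and TCHH) sits beside the small proline-rich and late envelope genes. DUSP1 is a phosphatase that inactivates MAP kinases.

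Library totals ran from 47016495 to 70986593 counts. DUSP1, which checks the labels, had 751 and 637 normalized counts in the control, 306.5 and 348 in Cl1, and 494 and 414 in Cl10, so that the 4 clone libraries lay below both control libraries. Normalized counts are scaled with TMM factors to the mean library total. All 9 markers of basal squamous cells, the labelled type, were counted in every group. Their summed level ran from 12128 to 12532 CPM (counts per 1000000 in a TMM-scaled library) in the control, from 14953 to 15199 in Cl1 and from 13615 to 14035 in Cl10. Of 15 salivary acinar and ductal markers, 8, 7 and 6 were at 0 in the control, Cl1 and Cl10. The summed level of these markers ran from 2099 to 2368 CPM in the control, from 2612 to 2878 in Cl1 and from 1570.3 to 1667 in Cl10, and came mainly from the keratins KRT19 and KRT18. Markers of fibroblasts, endothelium and leukocytes summed to 29.96 to 35.9, 37.1 to 39.4 and 21.7 to 22.9 CPM, and 2 of these 12 were at 0 in each group. The part of these shifts in the results below was not tested.

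The promoters are shown first, because 7 of the 10 genes carry the same short motif at a similar place. The 250 bases before the annotated start were taken from RefSeq (GRCh38.p14), which matched all 10 genes and gave 11 promoters, 2 of them for A2ML1. Capitals mark matches to TGANTCA, the letters searched for AP-1, the dimer of Jun and Fos proteins. The genes that were higher in the clones and lie in the complex are followed by SBSN and CNFN, whose differences did not pass the test.
IVL, chr1:152908296-152908545, plus strand: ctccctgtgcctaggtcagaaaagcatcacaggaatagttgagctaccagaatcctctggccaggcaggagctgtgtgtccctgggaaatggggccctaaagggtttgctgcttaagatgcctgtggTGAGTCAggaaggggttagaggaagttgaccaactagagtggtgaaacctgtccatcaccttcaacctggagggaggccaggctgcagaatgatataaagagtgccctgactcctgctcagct
FLG, chr1:152325240-152325489, minus strand: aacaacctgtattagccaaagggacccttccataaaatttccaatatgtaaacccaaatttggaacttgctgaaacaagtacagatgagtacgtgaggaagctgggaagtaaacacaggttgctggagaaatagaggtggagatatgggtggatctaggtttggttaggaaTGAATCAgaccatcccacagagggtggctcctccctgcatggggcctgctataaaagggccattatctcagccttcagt
HRNR, chr1:152224194-152224443, minus strand: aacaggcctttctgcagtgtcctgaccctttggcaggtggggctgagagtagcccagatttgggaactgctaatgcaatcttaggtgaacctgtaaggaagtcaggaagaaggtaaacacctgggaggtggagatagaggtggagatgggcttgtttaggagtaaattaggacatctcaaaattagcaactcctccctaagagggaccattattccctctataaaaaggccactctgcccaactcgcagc
RPTN, chr1:152159229-152159478, minus strand: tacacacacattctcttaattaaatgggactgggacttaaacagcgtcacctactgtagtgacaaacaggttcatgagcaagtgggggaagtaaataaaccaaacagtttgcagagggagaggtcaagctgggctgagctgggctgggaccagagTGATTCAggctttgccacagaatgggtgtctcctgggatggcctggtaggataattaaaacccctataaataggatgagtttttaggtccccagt
TCHH, chr1:152115445-152115694, minus strand: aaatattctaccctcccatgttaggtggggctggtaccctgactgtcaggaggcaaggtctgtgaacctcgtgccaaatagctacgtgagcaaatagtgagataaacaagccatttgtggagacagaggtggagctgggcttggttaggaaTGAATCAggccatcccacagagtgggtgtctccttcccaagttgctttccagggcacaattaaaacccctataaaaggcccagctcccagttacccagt
SBSN, chr19:35528312-35528561, minus strand: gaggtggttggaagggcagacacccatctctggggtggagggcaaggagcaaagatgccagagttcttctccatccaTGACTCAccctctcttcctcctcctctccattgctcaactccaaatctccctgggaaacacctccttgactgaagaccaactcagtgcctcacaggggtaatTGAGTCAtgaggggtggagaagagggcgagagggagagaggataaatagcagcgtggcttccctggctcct
CNFN, chr19:42390298-42390547, minus strand: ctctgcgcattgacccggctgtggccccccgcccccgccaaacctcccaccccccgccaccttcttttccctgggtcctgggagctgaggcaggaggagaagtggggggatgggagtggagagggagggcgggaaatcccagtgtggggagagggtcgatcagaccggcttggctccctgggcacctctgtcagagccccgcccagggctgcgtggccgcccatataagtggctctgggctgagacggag

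TGANTCA, read on both strands, was found in IVL, FLG, FLG2, RPTN, CRNN, TCHH and SBSN, 7 of 10 genes, and in 6.57% of 35116 RefSeq promoters of the same length. The stricter form TGAGTCA was held by 2 of the 10, IVL and SBSN, and by 4.2% of all promoters. It was added after the matches were seen, and its matches are also TGANTCA matches. The match began 123 bases before the start of IVL, 99 before TCHH, 95 before RPTN, 93 before CRNN, 79 before FLG and 64 before FLG2. SBSN had 2 matches, which began 173 and 71 bases before its start. No match was found for HRNR, A2ML1 or CNFN in these windows.

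The bases around the matches are shown here as 30 bases from the first base of the match, with the match in capitals.
FLG: TGAATCAgaccatcccacagagggtggctc
TCHH: TGAATCAggccatcccacagagtgggtgtc
RPTN: TGATTCAggctttgccacagaatgggtgtc
CRNN: TGAATCAagccttcccatagggcaggatat
FLG2: TGAATCAcctcattcactataatcactata
IVL: TGAGTCAggaaggggttagaggaagttgac
SBSN: TGAGTCAtgaggggtggagaagagggcgag
Of the 23 positions after the match, which the search did not fix, 18 were the same in TCHH as in FLG, 14 in RPTN, 11 in CRNN and 7 in FLG2, against 3 in IVL and 4 in SBSN. The 6 S100-fused genes are relatives, and their promoters are not independent examples of the motif. TATAAA, the TATA box, was found in TCHH, RPTN, HRNR, FLG, CRNN, IVL and the upstream promoter of A2ML1, 7 of 10 genes, each time 31 or 30 bases before the start, and in 10.7% of all promoters. CNFN instead held 4 matches to the GC box GGGCGG and was the only one of the 10 with a match, where 42.6% of all promoters had it, and its window was 68.4% G and C against 53.2% in IVL and 45.6% in FLG. TTGCNNAA (C/EBP) was found in FLG, FLG2 and SBSN and in 9.05% of all promoters, and CATTGT (SOX) in FLG2 and CRNN and in 9.29%. A match describes letters and does not show that a factor binds.

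**Figure D1:**
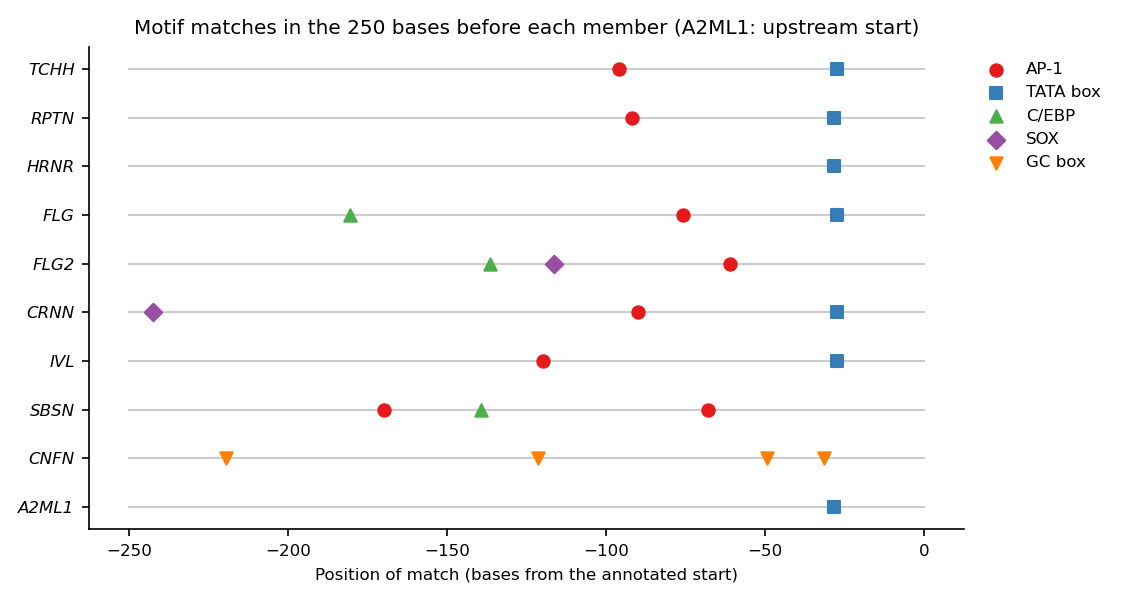
Positions of motif matches (points) in the 250 bases before the annotated start of each gene (x axis, bases from the start, with the start at 0), 1 line per gene. AP-1 matches of the S100-fused genes and IVL lie between 123 and 58 bases before the start, TATA box matches lie about 30 bases before it, and CNFN has 4 GC box matches.

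IVL encodes involucrin, a glutamine-rich rod that is among the first proteins cross-linked into the envelope. The gene (ENSG00000163207) lies on the plus strand of hg38 at chr1:152908546-152911886. The control libraries had 21.3 and 31.3 normalized counts, the Cl1 libraries 348 and 400.3, and the Cl10 libraries 589.6 and 623. The 3 groups did not overlap, and Cl10 was above Cl1 in both libraries. Fold changes were 14.5 in Cl1 (log2 3.86, standard error 0.234) and 23.6 in Cl10 (log2 4.56, standard error 0.192), and edgeR's quasi-likelihood test, used throughout, gave adjusted p = 3.74e-07 and 2.85e-05. Offset by the median over the 50 nearest genes, IVL was at 3.37 and 4.004 and was still called. The clones were compared with the same 2 control libraries, so their values are given side by side and are not independent of each other. Throughout, groups of 2 libraries separate easily, and the share of all genes whose groups do not overlap was not counted. In bulk RNA, more cells that express a gene and more RNA per cell cannot be told apart.

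FLG encodes profilaggrin, and HRNR (hornerin) and FLG2 (filaggrin 2) encode related repeat proteins. FLG (ENSG00000143631, chr1:152302165-152325239, minus strand) had 35.9 and 19.4 normalized counts in the control, 72.3 and 73.8 in Cl1, and 115 and 107 in Cl10. Both clones were higher than both controls, by log2 1.39 (standard error 0.328, adjusted p = 0.00842) in Cl1 and 1.99 (standard error 0.299, adjusted p = 0.00215) in Cl10. The median over the 50 nearest tested genes was 0.57 in Cl1 on the same log2 scale. Only FLG itself was left out of these neighbours, which spanned 2.30 Mb and took in other genes of the set and of the complex. The flanks of the complex, given below, had a median of 0.18 in Cl1. With the median of 0.57 as an offset FLG was at 0.82 (adjusted p = 0.0897) in Cl1 and was no longer called. This offset also takes out any change shared with the other genes of the set.

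HRNR (ENSG00000197915, chr1:152212076-152224193, minus strand) was low in the control, with 11.1 and 3.23 normalized counts from 13 and 3 reads. It had 30.1 and 38.1 in Cl1, and 66.7 and 71.5 in Cl10, so the groups did not overlap. Log2 fold changes were 2.17 (standard error 0.511, adjusted p = 0.00805) and 3.19 (standard error 0.444, adjusted p = 0.00153). The size rests on the control libraries, since leaving out control replicate 1 gave 3.35 and 4.36, and leaving out control replicate 2 gave 1.62 and 2.64. FLG2 (ENSG00000143520, chr1:152348735-152360006, minus strand) had 2 and 0 reads in the control, 1 and 0 in Cl1, and 5 and 3 in Cl10, too few for a test. The ratio of Cl10 to the control was 4.52, with an exact 95% counting interval from 0.902 to 43.7 that includes no difference, and the ratio to Cl1 was 8.73 (1.17 to 387).

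RPTN (repetin, ENSG00000215853, chr1:152153595-152159228, minus strand), an S100-fused envelope protein, had no read in either control library. It had 6 and 4 reads in Cl1 and 50 and 28 in Cl10, or 5.17 and 4.61 against 49.0 and 33.4 normalized counts. Against a floor of 3 counts over the 2 control libraries, RPTN was at least 29.4-fold higher in Cl10 (adjusted p = 0.00102) and at least 3.45-fold higher in Cl1, where it did not pass the filter on low counts and was not tested. The floor covers counting error in the control only, and not that of the clone reads. CRNN (cornulin, ENSG00000143536, chr1:152409243-152414263, minus strand), an S100-fused protein of squamous epithelia such as the esophagus, had 0 and 0, 0 and 2, and 1 and 1 reads in the 3 groups. All of its groups were at or under the floor, and no fold is given.

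TCHH encodes trichohyalin, which is joined to keratin filaments in the inner root sheath of hair and in tongue papillae. TCHH (ENSG00000159450, chr1:152106317-152115444, minus strand) had 206 and 227.5 normalized counts in the control, 337 and 273 in Cl1, and 488 and 467 in Cl10. The groups did not overlap. The log2 fold change in Cl10 was 1.16 (standard error 0.124, adjusted p = 0.000562), and in Cl1 it was 0.51 (standard error 0.169, adjusted p = 0.0416), below the fold threshold, and DESeq2 gave adjusted p = 0.0688 for it. With the median of the 50 nearest genes as an offset TCHH was at 0.95 in Cl10, just under that threshold, and at 0.13 (adjusted p = 0.621) in Cl1. As for FLG, these neighbours took in other genes of the set. Without Cl1 replicate 1 it was at 0.37 (adjusted p = 0.316) in Cl1, and without control replicate 1 at 0.44 (adjusted p = 0.0701).

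A2ML1, a secreted protease inhibitor of the alpha-2-macroglobulin family from the upper epidermis, lies outside the complex (ENSG00000166535, chr12:8822621-8887001, plus strand) and was ordered differently. It had 40.1 and 21.6 normalized counts in the control, 190.3 and 238 in Cl1, and 73.6 and 59.6 in Cl10. Cl1 was the highest group, and Cl10 lay between it and the control without overlap. The log2 fold changes were 2.77 in Cl1 (standard error 0.281, adjusted p = 2.47e-05) and 1.10 in Cl10 (standard error 0.334, adjusted p = 0.0338). The call in Cl10 was lost without control replicate 2 (0.75) and without Cl10 replicate 1 (0.95).

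CNFN and SBSN, both on chromosome 19, did not pass the test in either clone. CNFN (cornifelin, a small envelope protein, ENSG00000105427, chr19:42387019-42390297, minus strand) had 313 and 433.5 normalized counts in the control, 388 and 299 in Cl1, and 413 and 332.5 in Cl10. SBSN (suprabasin, a secreted protein of suprabasal cells, ENSG00000189001, chr19:35523367-35528351, minus strand) had 32.4 and 33.4, 31.0 and 49.6, and 39.2 and 26.2. For both genes the 3 groups overlapped. CNFN had log2 fold changes of -0.10 (standard error 0.186, adjusted p = 0.748) in Cl1 and 0.02 (standard error 0.187, adjusted p = 0.934) in Cl10. For SBSN they were 0.29 (standard error 0.349, adjusted p = 0.589) and 0.02 (standard error 0.320, adjusted p = 0.961).

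**Figure D2:**
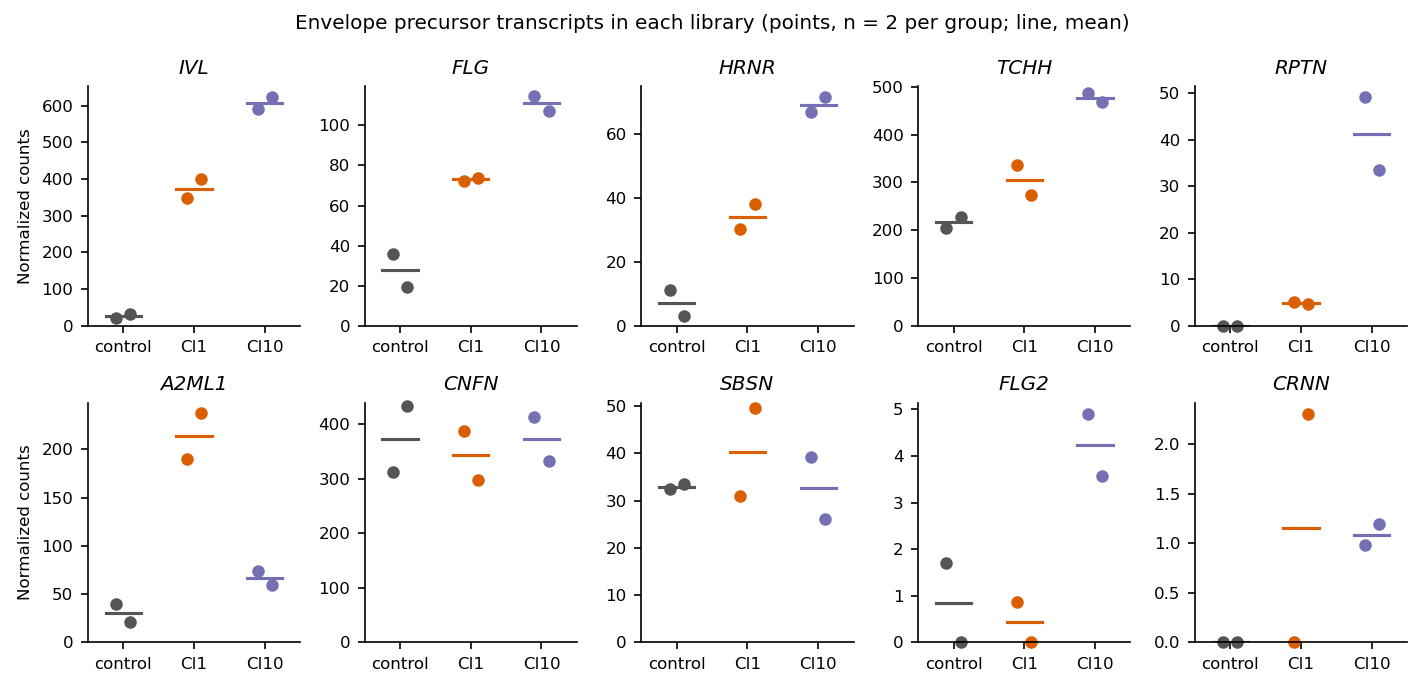
Normalized counts (y axis, TMM-scaled to the mean library total, each panel with its own scale from 0) of the 10 genes in each library of the control, Cl1 and Cl10 (points) with the group mean (line, n = 2). IVL, FLG, HRNR, TCHH and RPTN are highest in Cl10, A2ML1 is highest in Cl1 (190.3 and 238), and the groups of CNFN and SBSN overlap.

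Of the 10 genes, 7 passed the filter on low counts in the comparison of Cl1 with the control, and 4 of these were called higher (IVL, FLG, HRNR and A2ML1) and 0 lower, where 4.27% of the 20153 genes tested were called higher and 3.27% lower. A gene was called where its adjusted p was below 0.05 and its log2 fold change exceeded 1 in size. In Cl10, 8 passed the filter, 6 were called higher (the same 4 with RPTN and TCHH) and 0 lower, where 5.98% of 19875 genes were called higher and 7.44% lower. RPTN passed through the Cl10 libraries alone, and HRNR was low enough in the control to owe its place largely to the clones, so they had little room to be counted otherwise. With no fold threshold 5 and 6 genes were higher by adjusted p and 0 lower, against 12.4% and 20.6% of all genes higher and 12.8% and 21.8% lower. DESeq2 called the same numbers of the 10 as edgeR, 4 and 6. The median log2 fold change of all genes tested was -0.01 in both comparisons.

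**Figure D3:**
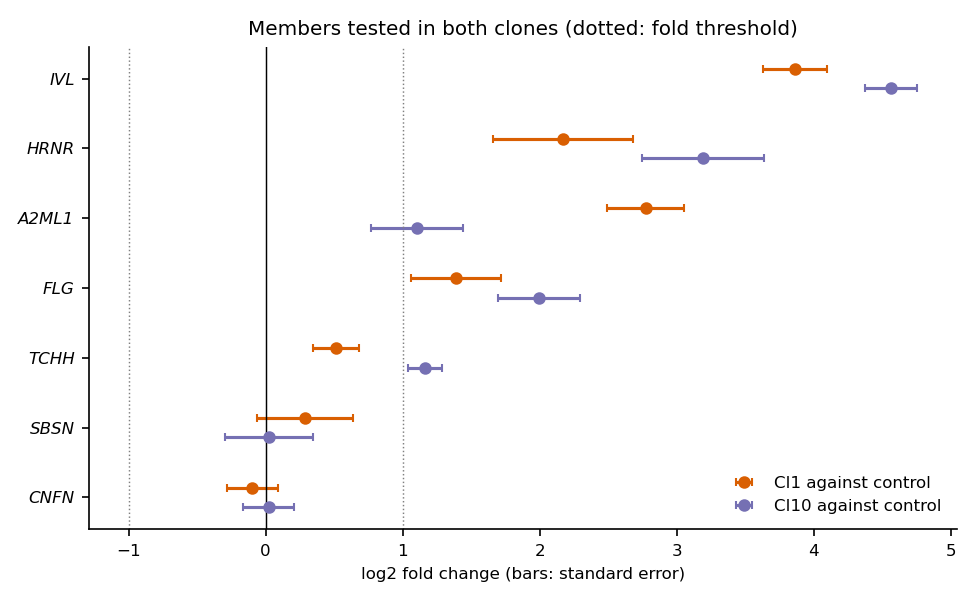
Log2 fold change (x axis) of the 7 genes tested in both clones, with standard errors (bars), for Cl1 and Cl10 against the control, and dotted lines at the fold threshold. IVL has the largest values (3.86 and 4.56), A2ML1 is further right in Cl1 (2.77) than in Cl10 (1.10), and the bars of CNFN and SBSN cross 0 in both clones.

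The 2 clones were also compared directly. RPTN was 8.27-fold higher in Cl10 than in Cl1 (log2 3.05, standard error 0.474, adjusted p = 0.000165) and HRNR 2.04-fold higher (log2 1.03, standard error 0.280, adjusted p = 0.00843), while A2ML1 was lower (log2 -1.67, standard error 0.206, adjusted p = 2.80e-05). RPTN, with 6 and 4 reads in Cl1, passed the filter on low counts through Cl10 alone and could not have been called lower. HRNR fell below the fold threshold without Cl1 replicate 1 (0.84) and without Cl10 replicate 2 (0.98). IVL, TCHH and FLG were higher in Cl10 by smaller amounts, with log2 values of 0.70 (adjusted p = 0.000253), 0.64 (adjusted p = 0.000853) and 0.61 (adjusted p = 0.0285). For FLG the adjusted p reached 0.139 under the alternatives. Of the 8 genes tested, 2 were called higher and 1 lower in Cl10, where 4.47% and 6.28% of 19818 genes were, and by adjusted p alone 5 were higher and 1 lower, against 24.9% and 24.1% of all genes. CNFN (0.12, adjusted p = 0.532) and SBSN (-0.26, adjusted p = 0.577) did not pass. DUSP1 itself had a log2 value of 0.48 between the clones (adjusted p = 0.00817), with Cl10 above Cl1.

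Per length, the set was dominated by CNFN in every library. Levels per length are CPM per kb of exon, over the exons of GENCODE 44, which run from 613 bases for CNFN to 12793 for FLG. In the control CNFN had 10.6 CPM per kb, followed by TCHH (0.539), SBSN (0.288), IVL (0.212), A2ML1 (0.0749), FLG (0.0375), HRNR (0.0129) and FLG2 (0.00163), with RPTN and CRNN at 0. The 2 libraries of each neighbour in that order did not overlap down to HRNR.

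In Cl1 IVL stood second with 3.02 CPM per kb, after CNFN at 9.74 and before TCHH at 0.759 and A2ML1 at 0.520. In Cl10 IVL was again second at 4.90 and CNFN first at 10.6, and TCHH followed at 1.19. SBSN (0.286), RPTN (0.201), A2ML1 (0.162) and FLG (0.151) came next, and neighbours among these 4 overlapped between libraries. Summed over the 10 genes, the level per length was 10.0 and 13.5 CPM per kb in the control, 15.6 and 13.6 in Cl1, and 18.7 and 16.5 in Cl10. IVL made up 1.81% of that sum in the control, 20.7% in Cl1 and 27.8% in Cl10, and CNFN 90.1%, 66.8% and 60.1%. A2ML1 held 0.637%, 3.56% and 0.919%.

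**Figure D4:**
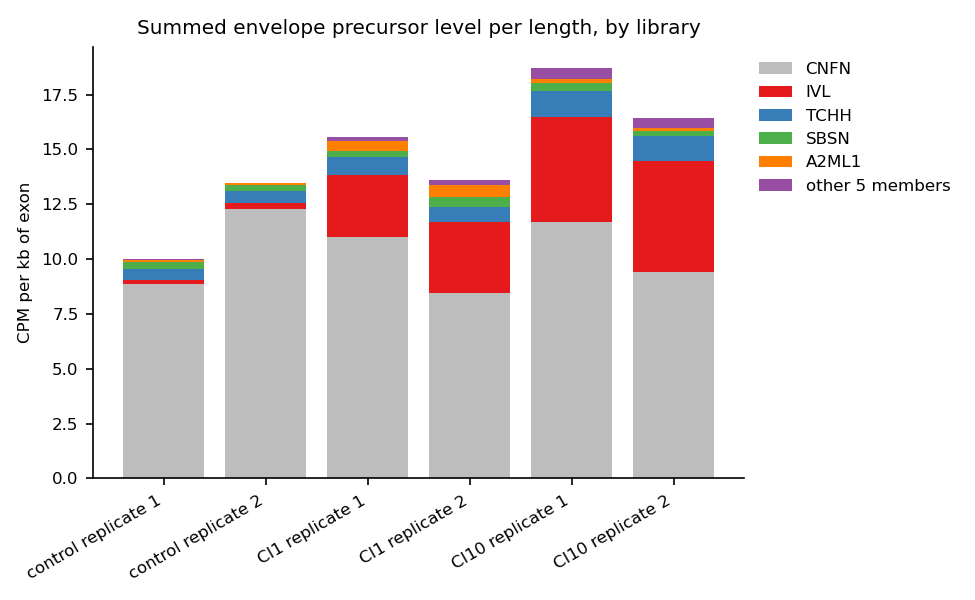
Summed level per length (y axis, CPM per kb of exon) of the 10 genes in each library, stacked by gene, with FLG, FLG2, HRNR, RPTN and CRNN together as other 5 members. CNFN fills most of each bar, and the IVL share grows from 1.81% of the control mean to 20.7% in Cl1 and 27.8% in Cl10.

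Neighbouring and overlapping genes bear on these values. FLG-AS1 is annotated antisense to FLG, FLG2, HRNR and CRNN, and its reads were 11 and 12 in the control, 15 and 15 in Cl1, and 41 and 26 in Cl10. FLG-AS1 was higher in Cl10 (log2 1.70, adjusted p = 0.0108) and had 0.45 (adjusted p = 0.547) in Cl1. The labels name a stranded kit, but the strand setting of the counting is not given in the sources used here, so reads of FLG-AS1 and of the genes opposite it cannot be told apart. The pseudogene PUDPP2, inside RPTN, had at most 3 reads in a library, and opposite A2ML1 the genes A2ML1-AS1 and ENSG00000282022 had at most 1 and 4. ENSG00000289062 is annotated opposite IVL and was not analysed here. FLG and HRNR hold long near-identical repeats, and how reads matching several places were counted is not given either.

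The rest of the epidermal differentiation complex was compared with its surroundings. The complex was taken from S100A10 to S100A1, chr1:151982915-153632039, or 1.65 Mb, and the 10 genes were left out, limits chosen after the data were seen. In Cl1, 12 of 30 tested genes were called higher and 0 lower, where 4.27% and 3.27% of all genes were. The median was 0.62 on the log2 scale. In Cl10, 15 of 32 were called higher and 0 lower, where 5.98% and 7.44% of all genes were. The Cl10 median was 1.04, the same with C1orf68, which was at 0 in the control, set at its bound. Some of the called genes passed the filter on low counts through the clone alone and could not have been called lower. Among them were TCHHL1 (1 control read), SPRR2E (10) and S100A12 (11) in Cl1. In Cl10 they included C1orf68 (0), LINC01527 (7), SPRR2E (10) and CRCT1 (13). Within 1 Mb on either side, 5 of 70 genes were called higher and 1 lower in Cl1 (median 0.18), and 1 of 66 higher and 1 lower in Cl10 (median -0.10). Of the flanking genes called higher, SELENBP1 in Cl1 (1 control read) had the same limit. No test of the difference between the complex and its flanks was made, and the copy number of the region was not measured here. Between the clones the other genes of the complex had a median of -0.22, with 9 of 31 called higher in Cl10 and 3 lower. Of all genes, 4.47% were called higher in that comparison and 6.28% lower. The flanks had a median of -0.26. IVL, FLG, HRNR, RPTN and TCHH were all higher in Cl10, and so were the small proline-rich genes of the complex. Of these, 4 of 6 tested were called higher and 0 lower, with a median of 1.58, and all 6 were higher by adjusted p, where 24.9% of all genes were. LCE3D (2.37) and FLG-AS1 (1.26) were also called higher. The genes called lower were S100A9 (-1.62), S100A12 (-1.47) and S100A3 (-1.20).

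**Figure D5:**
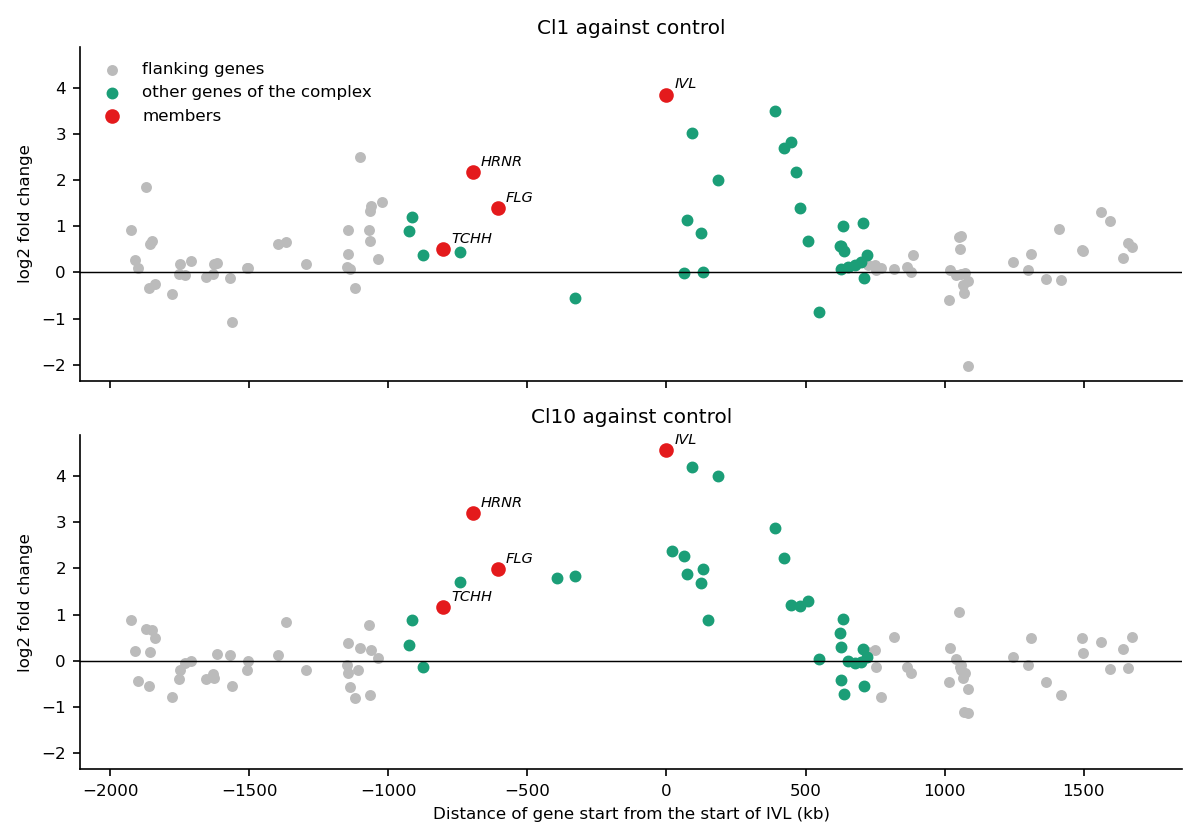
Log2 fold change (y axis) of each tested gene against the distance of its start from the start of IVL (x axis, kb), for Cl1 (top) and Cl10 (bottom) against the control, for genes with more than 3 control counts, which leaves out 2 genes in each panel. Genes of the set (red) and many other genes of the complex (green) lie above 0, while the flanking genes (grey) centre on medians of 0.18 in Cl1 and -0.10 in Cl10.

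Small proline-rich proteins are short cross-bridges of the envelope, encoded next to IVL. In Cl1, 3 of 6 tested genes were called higher and 0 lower (median 1.00), where 4.27% and 3.27% of all genes were. In Cl10 the calls were 6 of 7 and 0 lower (median 1.996), where 5.98% and 7.44% of all genes were. SPRR3 had 11.1 and 3.23 normalized counts in the control, 70.6 and 50.8 in Cl1, and 142 and 137 in Cl10, and its log2 fold changes were 3.02 and 4.20. SPRR2E (2.01 and 4.004) and SPRR1A (1.14 and 1.87) were also called in both clones. SPRR2E, with 6 and 4 control reads, passed the filter on low counts through the clones alone and could not have been called lower. SPRR3, with 13 and 3 control reads, owed its place largely to the clones. SPRR1B, the most abundant, had 0.86 in Cl1, under the fold threshold, and 1.69 in Cl10. SPRR4 (-0.01, adjusted p = 0.992) and SPRR2D (0.02, adjusted p = 0.984) did not pass the test in Cl1 and were called in Cl10 (2.26 and 1.996). SPRR2D, with 8 and 13 control reads, owed its place in Cl10 largely to the clone. The late cornified envelope genes were nearly silent, and 15 of 18 had at most 5 reads in any library. LCE3D, the only one tested, had 16.2 and 31.3 normalized counts in the control, 17.2 and 13.8 in Cl1, and 74.6 and 89.4 in Cl10, and its log2 fold changes were -0.56 (adjusted p = 0.406) and 1.83 (adjusted p = 0.00540). TCHHL1, an S100-fused relative of TCHH, had 1 read in the control, 27 in Cl1 and 14 in Cl10, a ratio of 27.9 in Cl1 with an exact 95% counting interval from 4.61 to 1144.

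Transglutaminases join the precursors. TGM5 was called higher in both clones, at log2 fold changes of 2.89 (adjusted p = 0.000127) and 1.72 (adjusted p = 0.0149) from 10.2 and 10.8 normalized counts in the control. TGM1, the most abundant, was apart in sign, at 0.60 (adjusted p = 0.00917) in Cl1 and -0.83 (adjusted p = 0.00589) in Cl10, both under the fold threshold. TGM5 was the only call among 4 tested genes in Cl1 and 2 in Cl10. For this list and the next, 4.27% of all genes were called higher and 3.27% lower in Cl1, and 5.98% and 7.44% in Cl10. Partners of the scaffold and of the desmosome, on which the envelope is assembled, had 0 of 10 genes called higher in Cl1 and 1 lower, ECM1 (-1.03). By adjusted p alone 4 of the 10 were higher in Cl1, all under the fold threshold, PKP1 (0.98), DSC2 (0.91), DSP (0.65) and EVPL (0.56). In Cl10 1 of 11 was called higher, C1orf68, and 0 lower, and 2 were higher by adjusted p alone. By adjusted p alone, 12.4% of all genes were higher in Cl1 and 20.6% in Cl10. Against the floor of 3 control counts, C1orf68 was at least 21.8-fold higher, without the counting error of the clone reads. C1orf68 had no control read and passed the filter through Cl10 alone, so it could only be called higher. The medians were 0.08 and -0.09. DSP (desmoplakin), the most abundant, had 0.05 in Cl10. PKP1, DSC2, EVPL, ECM1 and C1orf68 were named after their values were seen, as were the genes below that were called in 1 clone only or in opposite directions.

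Genes that process filaggrin were mixed. In Cl1, 3 of 14 tested were called higher and 1 lower (median 0.30), where 4.27% and 3.27% of all genes were. In Cl10 the calls were 4 of 14 and 0 lower (median 0.28), where 5.98% and 7.44% of all genes were. PRSS8, the membrane protease prostasin, had log2 fold changes of 2.77 and 1.14, and SPINK6, an inhibitor of kallikreins, 1.98 and 3.69. CASP14, a caspase of the upper epidermis that takes part in filaggrin breakdown, had 3.41 and 0 normalized counts in the control, 90.4 and 99.2 in Cl1, and 9.81 and 11.9 in Cl10. CASP14 passed the filter through Cl1, where it was high, and so could only be called higher there, and it was not tested in Cl10. The kallikrein KLK7 was called lower in Cl1 (-1.02), and the kallikrein KLK5 had -0.86 in Cl1 and was called higher in Cl10 (2.48). HAL, the histidine breakdown enzyme, was the other call in Cl10 (2.53). With 4 and 2 control reads, HAL passed the filter through Cl10 alone and could not have been called lower. CAPN1, the most abundant of the list, had 0.74 and 0.56, under the fold threshold.

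Suprabasal keratins, which fill the cell inside the envelope, had 3 of 7 tested genes called higher in Cl1 and 0 lower (median 0.90), and 2 higher and 1 lower in Cl10 (median 0.26). For this list and the next, the shares over all genes were 4.27% higher and 3.27% lower in Cl1, and 5.98% and 7.44% in Cl10. KRT1 (3.44 and 5.10) and KRT4 (2.39 and 2.76) were called in both clones, KRT80 (1.19) in Cl1, and KRT78 was lower in Cl10 (-2.06). KRT4, with 8 and 12 control reads, owed its place largely to the clones. KRT13, the most abundant, had 0.90 and 0.26. For the lipid envelope bound to the outside of the protein shell, 2 of 12 genes were called higher and 1 lower in Cl1 (median 0.04), and 2 of 13 and 0 in Cl10 (median 0.22). ABCA12, the lipid transporter of lamellar granules, was called in both clones (1.03 and 1.498), SDR9C7 (1.99) and ALOXE3 (-1.06) in Cl1, and PNPLA1 (2.06) in Cl10. PNPLA1, with 4 and 4 control reads, passed the filter on low counts through Cl10 alone and could not have been called lower. UGCG, the most abundant, had 0.51 and 0.43.

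Among 24 regulators of terminal differentiation, 4 were called higher in Cl1 and 0 lower (median 0.32), and 2 higher and 1 lower in Cl10 (median -0.06). Over all genes tested, 4.27% were called higher and 3.27% lower in Cl1, and 5.98% and 7.44% in Cl10. MAF, a transcription factor of late keratinocyte differentiation, rose in both clones, from 692 and 757 normalized counts in the control to 3108 and 3349 in Cl1 and 2611 and 2515 in Cl10. JUN, a subunit of AP-1, had log2 fold changes of 0.31 (adjusted p = 0.0520) in Cl1 and 1.21 (adjusted p = 0.000125) in Cl10. The other AP-1 subunits of the list were called in neither clone. FOSL1 had -0.62 (adjusted p = 0.00371) and 0.31 (adjusted p = 0.0150). FOSL2 had 0.22 and -0.12, JUNB -0.08 and 0.00, and JUND -0.18 and -0.05. ZNF750 (1.63), OVOL1 (1.19) and NOTCH3 (1.32) were the other calls in Cl1, and NOTCH3 was the gene called lower in Cl10 (-1.27). TP63, the most abundant and a regulator of squamous identity, had -0.36 (adjusted p = 0.0910) and 0.01 (adjusted p = 0.970).

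The genes closest to IVL in pattern lay elsewhere in the genome. Likeness was the root mean square difference of centred log2 CPM over the 6 libraries, among 19077 genes tested in the 3 comparisons, and the values describe how these genes were chosen. HACD4 on chromosome 9, an enzyme of very long chain fatty acid synthesis, was closest (0.32), with 17.9 and 23.7 normalized counts in the control, 198 and 224 in Cl1, and 271 and 313 in Cl10. It was followed by LINC02518 (0.36), PSG5 (0.38), TDRD5 (0.38) and CLEC7A (0.39). LINC02518, with 1 and 0 control reads, and TDRD5, with 2 and 1, were at or under the floor of 3 counts in the control. Both passed the filter against the control through the clones alone, and their likeness to IVL rests on these few control reads.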

How the data were processed

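Gene counts were deposited by the authors as raw read counts per gene, without normalization, for 6 libraries. By the study's methods, poly(A)-selected libraries were aligned to hg38 with HISAT2 and counted with HTSeq, whereas the submitters' processing notes name HISAT2, StringTie and DESeq. The annotation and strand setting are not given in the sources used here. Of 58735 identifiers, 58207 were found in GENCODE 44, which gave coordinates and exon lengths.

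Each comparison was fitted on its own 4 libraries with edgeR 4.0.16 in R 4.3.3 (filterByExpr, TMM, glmQLFit, glmQLFTest), with Benjamini-Hochberg adjustment over all genes tested. edgeR gives no standard errors, so each was taken from the unshrunk log2 fold change and the F statistic, as its size over root F. DESeq2 1.42.0, other normalizations and filters, a fit over all 6 libraries, a replicate block, leaving out each library and an offset by the 50 nearest genes were alternatives. The fit was tested on simulated data.

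The genes and lists were chosen with earlier results of these data known. Named were the 10 genes, DUSP1, overlapping genes, up to 4 genes per list called alike in both clones with its most abundant gene, and the 5 genes most like IVL. Others were named after their values were seen, and 2 listed genes are not reported here. Promoters came from RefSeq (GRCh38.p14). With 2 libraries a group, an exact permutation test cannot go below p = 0.333, so none was used.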

Additional observations from a re-analysis of the deposited data

Results flagged for a closer look

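By adjusted p alone, the difference between the clones passed the test of Cl10 against Cl1 itself for 6 genes of the set, of 8 tested. Of all 19818 genes tested, 24.9% were higher and 24.1% lower by the same rule. RPTN, HRNR and A2ML1 also passed the fold threshold, and RPTN passed the filter on low counts through Cl10 alone. Log2 values of Cl10 minus Cl1 were 3.05 for RPTN, 1.03 for HRNR, 0.70 for IVL, 0.64 for TCHH and 0.61 for FLG, all with both Cl10 libraries above both Cl1 libraries. A2ML1 went the other way, at -1.67, with both Cl10 libraries below both Cl1 libraries. This comparison does not involve the control libraries. With 2 libraries per group, no library could be tested as an outlier. The share of all genes whose Cl10 and Cl1 libraries separate was not counted. Separation of 2 libraries from 2 says little by itself, since an exact permutation test cannot go below p = 0.333.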

How the results depend on the processing

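Of 272 recomputed log2 fold changes of the 10 genes, 6 kept the direction and lost the call and 13 changed sign, while the rest kept both. The 13 were all of CNFN and SBSN, which were called in no comparison. Leaving out a library took CNFN from -0.32 to 0.16 in Cl1, from -0.21 to 0.27 in Cl10 and from -0.043 to 0.31 between the clones, and SBSN from -0.082 to 0.62, from -0.30 to 0.27 and from -0.60 to 0.10. With the median of the 50 nearest genes as an offset CNFN was at 0.011, -0.029 and -0.080, and the lost calls were FLG in Cl1 (0.82) and TCHH in Cl10 (0.95). The neighbours of FLG and TCHH took in other genes of the set, so the offset also takes out change that they share. The other lost calls were those of A2ML1 in Cl10 and of HRNR between the clones, given above with the libraries left out. The number of genes of the set called higher, 4 in Cl1 and 6 in Cl10, ran over the alternatives from 3 (10 counts in every library, or the offset) to 5 (one fit over all libraries, or no fold threshold) and from 4 (10 counts in every library) to 6. The number called higher in Cl10 over Cl1, 2, was 1 with at least 10 counts required in every library, ran from 1 to 2 when a library was left out, and was 5 with no fold threshold. All genes called then rose from 1520 to 5064 in Cl1, from 2667 to 8439 in Cl10 and from 2131 to 9706 between the clones, where the construction of that alternative shows the cause. For the other changes the cause was not tested.

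Same-numbered libraries did not deviate together (correlations of -0.147, -0.101 and -0.0159 over 15196 genes). These values show no large deviation shared by number, and cannot settle whether the samples are paired. A replicate block gave 4 and 6 genes of the set called higher, with 1587 and 2857 of all genes called, and changed no call of the set. The crossed pairing, added after the data were seen, gave 4 and 6, with 1705 and 2866. HRNR (13 and 3 control reads), RPTN, FLG2 and CRNN are limited by depth, and the last 2 could not be tested in any comparison.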

Other observations

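Several genes of the epidermal differentiation complex outside the lists above were also higher, and were named after their values were seen. PGLYRP3 and PGLYRP4 encode secreted peptidoglycan recognition proteins of epithelial surfaces. PGLYRP3 had 19.6 and 12.9 normalized counts in the control, 158 and 218 in Cl1, and 118 and 125 in Cl10 (log2 fold changes of 3.51 and 2.88), and PGLYRP4 had log2 fold changes of 2.71 and 2.24. S100A8 and S100A9 encode the subunits of calprotectin. S100A9 had 518 and 651 normalized counts in the control, 3700 and 4487 in Cl1, and 1437 and 1212 in Cl10, and was called by edgeR's test in both clones (2.83 and 1.20) and lower in Cl10 than in Cl1 (-1.62, adjusted p = 1.18e-07), as A2ML1 was. S100A8 had 1.41 and 1.18, and between the clones -0.22 (adjusted p = 0.258), which did not pass the test.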
